A study of Mus musculus with 2 samples.

Results

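The interferon-inducible p200 family of the mouse is a set of related genes that lie side by side on chromosome 1. Its members were chosen by symbol, taking every listed gene whose name starts with Ifi20 together with Mnda, Mndal, Pyhin1 and Aim2. This gave 3 genes, Ifi203, Ifi204 and Ifi205, with 4 probes among 7976 genes and 9143 probes in all. Ifi204 (1 probe) and Ifi205 (2 probes) had values on both arrays, and Ifi203 (1 probe) on 1 array. None of the other named genes was listed under its symbol or an older one. A further gene of the family, Ifi214, was listed under the older name BC094916, falls outside the rule and is described beside the members. The family was chosen because the ratios of Ifi204 and Ifi205 were known, so all its ratios of IRF8 KO over wt are given as a description with no test.

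The samples were primary, untreated CD11b-positive mouse cells from wild type (wt) and from IRF8 KO, which lacks interferon regulatory factor 8. On both of the 2 arrays the wt RNA was labelled with Cy5 and the IRF8 KO RNA with Cy3, so that dye and genotype cannot be told apart. The series calls the arrays biological replicates. The labels used here give no strain, age, tissue, allele or sorting method. Irf8 had 0 probes, and the genotype was therefore not checked by its own transcript. CD11b itself, encoded by Itgam, was detected in all 4 channels. Its raw signals were 1862 in wt and 7883 in KO on replicate 1, and 3527 and 15036 on replicate 2. Itgam was higher in KO on both arrays (log2 ratios of 2.06 and 1.70), and so was its partner chain Itgb2 (1.12 and 1.01). Both were chosen as a check of the cell label. Of the other genes looked up beside them, Fcgr3 stood at 0.27 and 0.37. Spi1 (-1.09 and -0.60) and the Ptprc probe on both arrays (-0.62 and -0.87) were lower in KO.

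Proteins of the p200 family, also called PYHIN proteins, carry a HIN domain that binds double-stranded DNA, and most also have a pyrin domain that binds other pyrin domains. Type I interferon induces most of the mouse genes. In mouse cells p204, the product of Ifi204, takes part in sensing of foreign DNA through the adaptor STING and in the differentiation of monocytes into macrophages, and Aim2 builds an inflammasome on cytosolic DNA. Factors of the IRF family bind the interferon-stimulated response element (ISRE), which repeats the letters GAAA, and IRF8 also binds composite elements with PU.1, the product of Spi1.

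The promoters of the family are shown because the element that IRF factors bind can be read in them. Whether it has a part in the ratios was not tested. RefSeq windows on build GRCm38.p6, from 250 bases before to 50 bases after a start, were found for 12 of 13 family genes. Ifi204 is the gene that had none. The windows were searched on both strands for the ISRE core, which is GAAA and GAAA with any 2 bases between them. They were also searched for the composite elements EICE (GGAA, any 2 bases, GAAA) and IECS (GAAA, any 2 bases, GGAA) and for the STAT element GAS (TTCNNNGAA). The core shares letters with both composite elements, but neither contains it. The core was present in 9 of the 12 genes, which had 14 windows, against 3.44% of 32851 windows of the same length over all genes. No window held the EICE letters (2.72% of all windows), Ifi209 alone held the IECS letters (2.8%), and Ifi202b alone held the GAS letters (8.3%). The windows of Aim2 held none of these letters. In all 9 genes a core lay upstream of a start in the direction of the gene, with its first base between -134 and -35. In 8 of these genes it was followed by GC, a feature read from these windows. The 12 letters of core and GC were found in 79, or 0.24%, of the windows over all genes. Below are the measured members first and then relatives, 5′ to 3′, with the core in capitals.
Ifi205: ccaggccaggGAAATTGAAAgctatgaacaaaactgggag
Ifi203: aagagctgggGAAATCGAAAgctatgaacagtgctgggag
Ifi214: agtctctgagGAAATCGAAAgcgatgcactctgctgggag
Ifi211: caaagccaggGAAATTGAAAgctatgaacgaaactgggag
Ifi207: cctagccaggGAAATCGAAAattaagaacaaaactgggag
Ifi208: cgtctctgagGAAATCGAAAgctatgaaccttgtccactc
Ifi206: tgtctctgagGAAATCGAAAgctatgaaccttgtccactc

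The stretch of Ifi203 is letter for letter that of Mndal, and the stretch of Ifi208 is that of Ifi213. The genes are copies of each other, so their matches are not independent. The whole Ifi205 window, at chr1:174031706-174032005 on the minus strand, held a second core on the opposite strand after the start beginning at base 23.
Ifi205 promoter: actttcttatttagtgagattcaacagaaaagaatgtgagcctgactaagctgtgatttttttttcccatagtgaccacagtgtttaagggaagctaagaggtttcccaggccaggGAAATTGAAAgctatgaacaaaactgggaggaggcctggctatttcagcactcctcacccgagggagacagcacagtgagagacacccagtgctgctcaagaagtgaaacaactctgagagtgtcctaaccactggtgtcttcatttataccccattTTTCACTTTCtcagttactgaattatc
The Ifi214 window, at chr1:173535908-173536207 on the minus strand, held a single core at -79, and the Ifi203 window at chr1:173942443-173942742 on the minus strand held a single core at -35. A second Ifi203 window, from a start farther upstream, held none. These matches describe letters in the windows, and binding was not measured.

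Ifi204 had the larger mean difference of the members measured on both arrays. Its probe lies at 175677469 to 175677539 of chromosome 1 on mouse build 37, within the transcript annotated from 175677423 to 175697050, and the deposited table gives it 1 gene match. The raw signal was 6601 in wt and 823 in KO on replicate 1, and 5282 in wt and 2395 in KO on replicate 2. Both KO signals lay below both wt signals. How many of all genes did so was not counted, and Ifi204 was chosen on its ratios, so this is a description only. The log2 ratio of KO over wt was -3.03 on replicate 1 and -1.53 on replicate 2, which are 8.17-fold and 2.89-fold more in wt, with a mean of -2.28 ± 1.06 (SD, n = 2 arrays). The direction was shared, and the size was larger on replicate 1 than on replicate 2.

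Ifi205 was read by 2 probes, both lower in KO on both arrays. The table gives no probe position for either and places the gene at 175942128 to 175961886 of chromosome 1 on build 37. Probe mMR027562, with 2 matched genes, read 8237 in wt and 784 in KO on replicate 1, and 4327 and 1468 on replicate 2. Its log2 ratios were -3.42 and -1.95. Probe mMC024437, with 3 matched genes, read 10285 in wt and 4295 in KO on replicate 1, and 22985 and 7927 on replicate 2, for log2 ratios of -1.29 and -1.93. Here the KO channel of replicate 2 came close to the wt channel of replicate 1. The wt and KO signals did not overlap for either probe. This was not counted over all genes, and Ifi205 was chosen on its ratios, so it is a description only. Averaged over probes, the gene gave -2.35 and -1.94, a mean of -2.15 ± 0.29 (SD, n = 2 arrays) and 4.43-fold more in wt. The table does not say which other genes the probes match, so the Ifi205 values may hold transcripts of related genes.

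**Figure D1:**
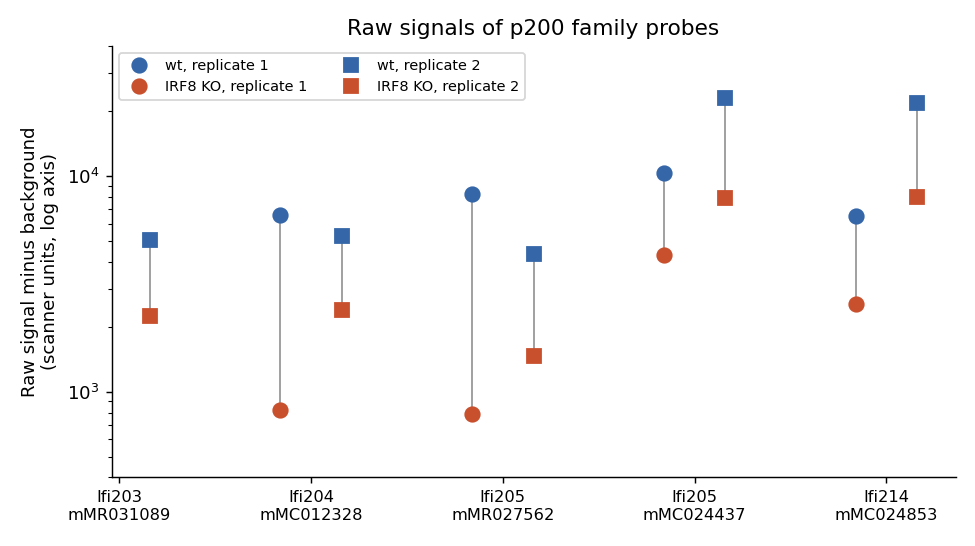
Raw signal minus background (log axis, scanner units) of each p200 family probe in wt (blue) and IRF8 KO (red) on replicate 1 (circles) and replicate 2 (squares), with a line joining the channels of an array. Every KO signal sits below its wt signal; the lowest KO signals are 823 (Ifi204) and 784 (Ifi205, mMR027562), both on replicate 1.

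The small SD of Ifi205 hid a disagreement between its probes. On replicate 1 the probes differed by 2.13 on the log2 scale and on replicate 2 by 0.02. Among 433 genes with several probes on both arrays, the median range between probes was 0.36 on replicate 1, and 2 genes, or 0.462%, had a range at least as large as that of Ifi205. On replicate 2 the median range was 0.23. Taken by probe, the means were -2.69 ± 1.04 for mMR027562 and -1.61 ± 0.45 for mMC024437 (SD, n = 2 arrays), or 6.43-fold and 3.05-fold more in wt. The more selective reading was not settled, because no probe sequence was used here.

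Ifi203, known as an interferon-induced nuclear protein, was listed on replicate 2 only, where its raw signal was 5066 in wt and 2250 in KO. The log2 ratio was -1.56, or 2.95-fold more in wt, with no second array to compare. The other family probes on that array ran from -1.95 to -1.53. The deposited table gives its probe no position and names the gene through a UniGene cluster.

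Ifi214, a PYHIN protein gene outside the rule, was also lower in KO on both arrays. Its probe lies at 175454960 to 175455030 of chromosome 1 on build 37. It read 6508 in wt and 2545 in KO on replicate 1, and 21774 and 7963 on replicate 2. The KO signal of replicate 2 lay above the wt signal of replicate 1. Raw signals over all probes were brighter on replicate 2 (median wt signal 2448, against 1652 on replicate 1). The overlap across arrays therefore does not set Ifi214 apart from Ifi204 and Ifi205. The log2 ratios were -1.38 and -1.84, with a mean of -1.61 ± 0.33 (SD, n = 2 arrays). All family probes thus gave the same direction on every array that listed them. Ifi204 and Ifi205 were chosen on their ratios, and the median of all genes on replicate 2 was itself below 0 (-0.42).

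On replicate 1 the probes fell into pairs by their ratios. Ifi214 and the Ifi205 probe mMC024437 differed by 0.09 on replicate 1 and by 0.08 on replicate 2. Ifi204 and the Ifi205 probe mMR027562 differed by 0.39 and 0.42. Both of the latter were lower on replicate 1 than on replicate 2, whereas Ifi214 and mMC024437 were higher on replicate 1, by 0.46 and 0.64. Distances between the pairs came to 1.65 or more on replicate 1 and to 0.39 or less on replicate 2, where all family probes lay close together. The 0.42 between Ifi204 and mMR027562 was larger than these distances on replicate 2, so the pairs did not hold there. Transcripts that cross-react with these probes could not be told apart from separate responses of the genes.

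The ratios depended little on the scaling in direction and more in size. The median over 5192 genes was 0.03 on replicate 1 and -0.42 on replicate 2, so the deposited ratios of replicate 2 carry an offset toward wt. With each array centred on its median, Ifi204 stood at -3.06 and -1.11 and the Ifi203 probe at -1.14. Loess within arrays, which also removes a dependence on brightness, gave -3.12 and -1.09 for Ifi204 and -1.13 for Ifi203. The probe mMR027562 of Ifi205 stood at -3.45 and -1.53 after centring, and mMC024437 at -1.31 and -1.50. Centring brought Ifi214 to -1.41 and -1.42, with the arrays almost equal. The gap of Ifi204 and of mMR027562 between the arrays widened with centring, and that of mMC024437 and Ifi214 narrowed.

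**Figure D2:**
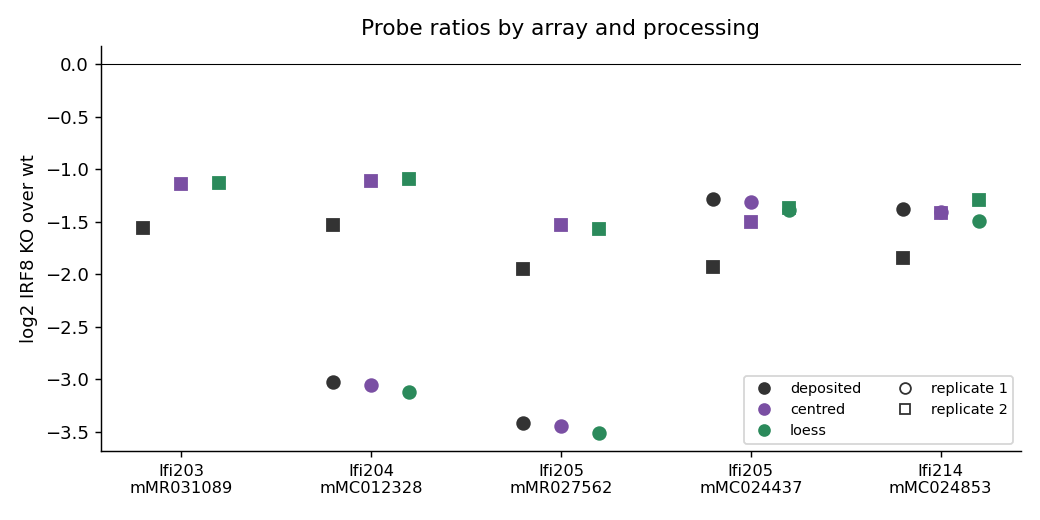
Log2 ratio of IRF8 KO over wt of each p200 family probe as deposited (black), with arrays centred (purple) and with loess (green), on replicate 1 (circles) and replicate 2 (squares). All values lie below 0 under the 3 scalings; Ifi204 and mMR027562 sit near or below -3 on replicate 1, whereas mMC024437 and Ifi214 lie between -1.29 and -1.93 as deposited.

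Ifi204 and Ifi205 were both at least 2-fold lower in KO on both arrays, as were 2.75% of the 5192 genes, a share given only as the background because the genes were chosen on these ratios. By mean ratio, Ifi204 ranked 14 from the lowest and Ifi205 ranked 19. By single arrays, Ifi204 ranked 16 on replicate 1 and 150 on replicate 2, and Ifi205 ranked 33 and 36. The lowest family signal, 784, lay above the minimum of 100 stated in the file header and above 451, the dimmest signal listed. The largest family ratios, on replicate 1, rest on dim KO signals. These were 1.74 (mMR027562) and 1.82 (Ifi204) times the dimmest signal listed on that array.

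The other genes of the neighbourhood had smaller mean differences than Ifi204, Ifi205 and Ifi214. Within 2 Mb of a family probe or gene on chromosome 1, 23 other genes or unnamed probes were listed, 14 of them on both arrays. None of the 14 was called by limma (0 lower and 0 higher; 3 had an unadjusted p under 0.05, and 0 by an ordinary t statistic), which is near the shares of 3.41% lower and 2.81% higher over all genes. None was 2-fold on both arrays (2.75% lower and 2.16% higher over all genes), and 0 were called with centred arrays or loess. Their mean log2 ratios ran from -0.89 for Fh1, the mitochondrial fumarate hydratase, to 0.51 for Casq1, a calcium-binding protein of muscle. The nearest neighbours were olfactory receptor genes, Olfr1404 at -0.30 and -0.90 and Olfr429 at -0.48 on replicate 2 only. Farther out, the lymphocyte receptor genes Slamf6 (-0.11 and -1.47) and Slamf1 (-1.53 on replicate 2 only) were low on replicate 2. On replicate 2 both came close to Ifi204, and on replicate 1 the lowest neighbour, Pea15a, a regulator of apoptosis signalling, at -1.23 came close to the probe mMC024437 of Ifi205.

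**Figure D3:**
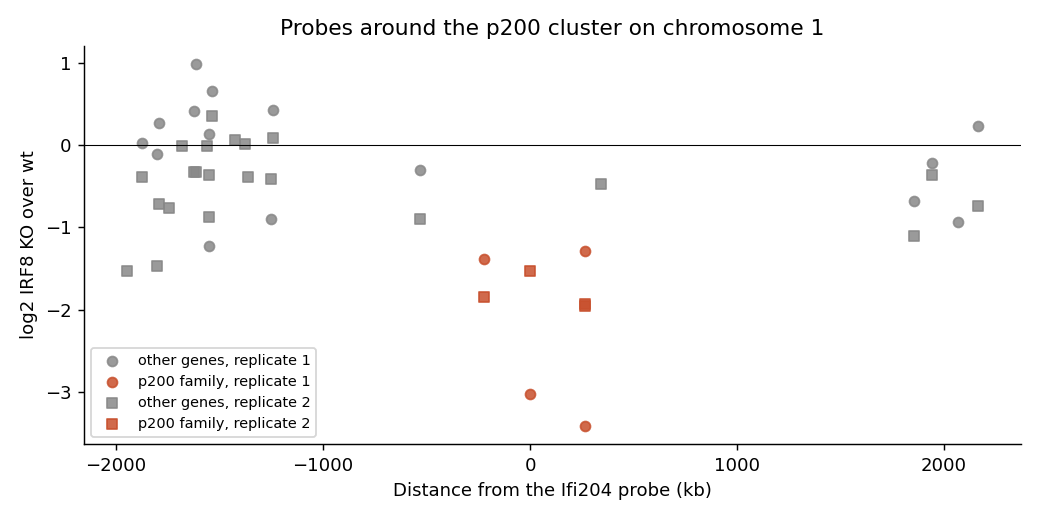
Log2 ratio of IRF8 KO over wt against the distance from the Ifi204 probe in kb, for p200 family probes (red) and other genes (grey) on replicate 1 (circles) and replicate 2 (squares). Ifi205 is placed at the start of its gene; Ifi214, Ifi204 and Ifi205 lie between -222.5 and 264.7 kb with ratios from -1.29 to -3.42, and the lowest ratio of another gene is that of Slamf1, -1.53 at -1947.7 kb.

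Genes with ratios most like those of Ifi204 were found by the Euclidean distance over the 2 arrays among 5191 other genes. The 5 nearest were Fcgrt, the Fc receptor that recycles IgG (distance 0.26, ratios -3.16 and -1.76), Vcam1, an adhesion molecule (0.26), Bcl2a1d, a prosurvival gene whose probe matched 3 genes (0.27), Adgre4, an adhesion receptor of myeloid cells (0.29), and Ifi27l2a, an interferon-induced gene (0.32). For Ifi205 the 5 nearest were Irf5, a further interferon regulatory factor (0.15, ratios -2.29 and -2.08), the lysosomal protease Lgmn (0.17), the transcription factor Zeb2 (0.23), the protease Ctsc (0.26) and Gng11, a G protein subunit (0.27). Likeness over 2 arrays is a description only, and the Ifi205 position averages probes that disagreed.

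Other interferon-stimulated genes were compared because most p200 genes share their inducer. Of 19 such genes on both arrays, 4 fell and 0 rose by limma (adjusted p under 0.05, against 3.41% lower and 2.81% higher over all genes). The list's median ratio was -0.22, beside -0.21 over all genes. Ifi27l2a fell most, with -2.72 and -1.62 on replicates 1 and 2 (mean -2.17 ± 0.78, SD, n = 2; limma adjusted p = 7.53e-06). Bst2, a tether of budding viruses, gave -1.97 and -1.02, the secreted glycoprotein Lgals3bp -1.89 and -0.95, and Irf7, the factor that amplifies the interferon response, -1.36 and -1.11. With centred arrays Ifi27l2a was called (adjusted p = 0.0462) and the other 3 were not, and with loess 4 were called. The shares over all genes were 0.809% lower and 2.89% higher with centred arrays, and 5.34% lower and 7.34% higher with loess. The antiviral genes Oasl2 (-0.78 and -1.12), Parp9 (-0.96 and -0.94) and Ifit1 (-1.33 and -0.16) were not called. Eif2ak2, the kinase that senses double-stranded RNA, stood at -0.15 and -0.10, and Oas2 at 0.44 and 0.22. In mean ratio 0 of the 19 genes lay below Ifi204 and 1, Ifi27l2a, lay below Ifi205.

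**Figure D4:**
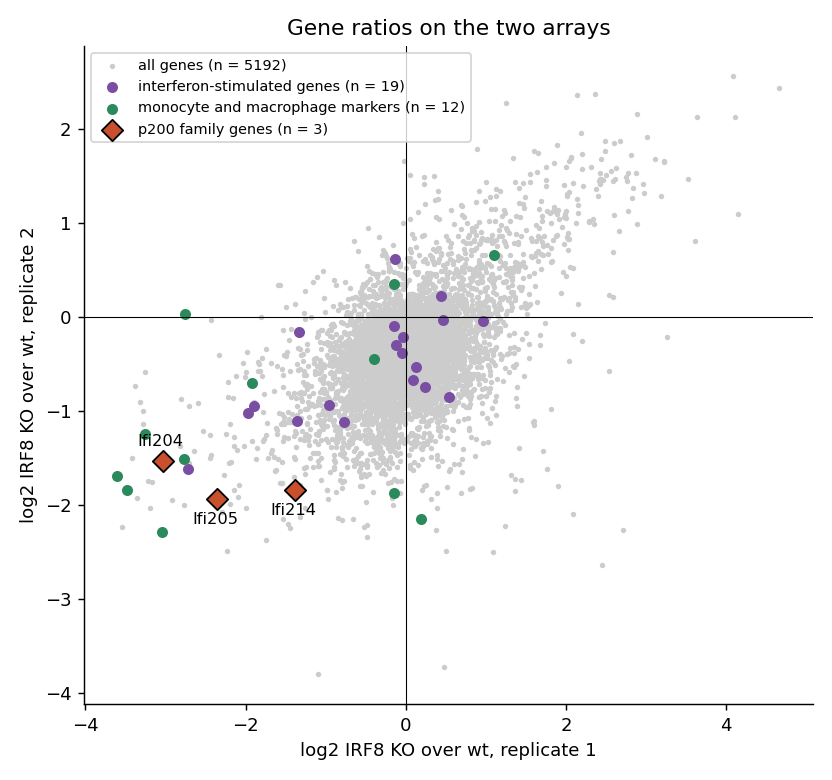
Log2 ratio of IRF8 KO over wt on replicate 1 (horizontal) against replicate 2 (vertical) for all 5192 genes (grey), interferon-stimulated genes (purple, n = 19), monocyte and macrophage markers (green, n = 12) and p200 family genes (red diamonds). The family lies at the lower left among macrophage markers, and most interferon-stimulated genes lie near the centre of the cloud.

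Interferon receptors and their signalling had 0 of 15 genes called by limma in either direction (1 had an unadjusted p under 0.05 and 3 by an ordinary t statistic; with loess 0 were lower and 1 higher), near the shares over all genes of 3.41% lower and 2.81% higher, and with loess of 5.34% and 7.34%. The list's median was -0.31. Irf1 stood at -0.59 and -1.25, Ifnar1, a chain of the type I interferon receptor, at -0.71 and -0.72, Irf2 at -0.19 and -1.03, and Ptpn11 at 0.57 and 0.78, none of them past the threshold.

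Genes of cytosolic nucleic acid sensing, the pathway in which p204 and Aim2 act, had 1 of 17 lower and 1 higher by limma, close to the 3.41% and 2.81% over all genes, with a median of -0.27. The lower gene was Irf7 again. The chromatin protein Hmgb2 rose, with 2.58 and 0.69 (mean 1.64 ± 1.34, SD, n = 2; limma adjusted p = 0.00158), and its signal reached 62046, above the 60000 taken here as the ceiling. The DNA sensor Cgas stood at 0.40 and -0.53, and Irf3 at 0.16 and -0.90, neither called. Of the inflammasome list 2 of 7 genes fell and 0 rose by limma, against 3.41% lower and 2.81% higher over all genes, with a median of -0.24. Il1b gave -0.52 and -2.24, and Casp1, the inflammatory caspase, gave -1.23 and -1.13 (limma adjusted p = 0.0489). Neither was called after centring (adjusted p = 0.13 and 0.113). The lower count was 1 with the brightest probes, with probes of a single match or with an intensity trend. With loess 3 were lower and 1, the flagellin sensor component Naip2 (0.84 and 0.47), was higher, against 5.34% and 7.34% over all genes. Pycard, the adaptor that Aim2 recruits, stood at 0.10 and 0.59 and Gsdmd, the pore protein, at -0.03 and -0.07.

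Reported binding partners of the mouse proteins p202 and p204 had 0 of 10 genes called by limma, and their median was -0.23. The shares over all genes were 3.41% lower and 2.81% higher. At an unadjusted p under 0.05 were 3 by limma and 1 by an ordinary t statistic, against 839 and 302 of 5192 genes. With loess 0 were lower and 2 higher, against 5.34% and 7.34% over all genes. Rb1, the retinoblastoma protein gene, stood at -0.03 and -0.44, and Trp53 at -0.40 and -1.39. Id1, an inhibitor of differentiation factors, stood at 0.83 and 0.95. Fos (2.71 and -2.27) and Jun (2.08 and -2.10) had opposite signs on the arrays, so their means near 0 describe neither array.

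**Figure D5:**
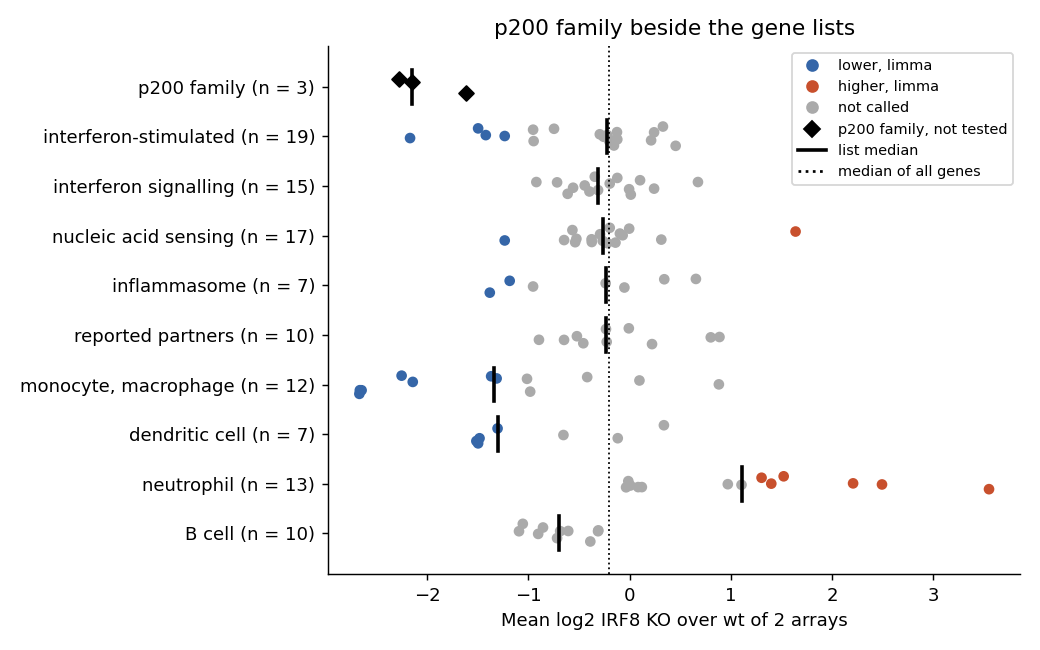
Mean log2 ratio of IRF8 KO over wt of 2 arrays for each gene of the lists, coloured by limma's call (blue lower, red higher, grey not called), with list medians (bars) and the median of all genes (-0.21, dotted line). The p200 family genes (black diamonds, not tested) lie from -2.28 to -1.61, whereas the interferon-stimulated, signalling, sensing, inflammasome and partner lists have medians from -0.31 to -0.22. The cell type lists have medians of -1.34 (monocyte and macrophage), -1.30 (dendritic cell), -0.70 (B cell) and 1.10 (neutrophil).

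Markers of several cell types moved with the family. Of 12 monocyte and macrophage markers on both arrays, 7 fell and 0 rose by limma, against 3.41% lower and 2.81% higher over all genes, and 5 were at least 2-fold lower on both arrays. The median was -1.34 (-2.34 on replicate 1 and -1.38 on replicate 2 by single arrays). Csf1r, the growth factor receptor of macrophages, gave -3.04 and -2.30 with a signal of up to 62900, and Hmox1, the heme-degrading enzyme, gave -3.48 and -1.84. In mean ratio 3 of the 12 markers, Csf1r and Hmox1 among them, lay below Ifi204, and 4 lay below Ifi205, among them the transcription factor Spic (-3.25 and -1.25). Marco, a scavenger receptor, was called with -2.76 and 0.03, so that its lower mean came from replicate 1 alone. The monocyte genes Cd14 (-0.39 and -0.44) and Cx3cr1 (-0.15 and 0.35) were not called, and Lyz2 stood at 0.88 in the mean. With centred arrays 2 of the 12 were called lower and 0 higher, against 0.809% and 2.89% over all genes. With loess 7 were lower and 1, Lyz2, was higher, against 5.34% and 7.34%. Summed raw signals over the list were 280095 in wt and 116779 in KO on replicate 1, and 185726 and 151498 on replicate 2. The lowest signal in the list was 674, but the deposited table holds no probe below its signal minimum, and markers listed on 1 array are not in these sums.

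Of 7 dendritic cell markers 4 fell and 0 rose by limma, against 3.41% lower and 2.81% higher over all genes, with a median of -1.30. After centring 0 were called (0.809% lower over all genes) and with loess 4 (5.34%). Flt3 gave -2.16 and -0.87, Cd83 -1.15 and -1.45 and Ly6d -0.80 and -2.16, with Bst2 as the fourth. Cd24a (1.09 and -0.41) and Batf3 (-0.54 and 0.31) were not called and had opposite signs on the arrays. The summed raw signals were 46463 in wt and 72765 in KO on replicate 1 and 123863 and 85650 on replicate 2. Such sums weigh bright genes most, and the signal of Cd24a reached 65021, above the 60000 taken here as the ceiling. Of 13 neutrophil markers 6 rose and 0 fell by limma, against 2.81% higher and 3.41% lower over all genes, and 2 were at least 2-fold higher on both arrays. The median was 1.10 (1.66 on replicate 1 and -0.21 on replicate 2 by single arrays). Camp, a granule peptide, gave 4.66 and 2.43, and Mpo, the myeloperoxidase of granules, 3.52 and 1.47. The called gene Chil3, a chitinase-like protein, gave 3.26 and -0.21, and the uncalled Csf3r, the receptor for the neutrophil growth factor, gave 0.56 and -0.58. Of the list's 15 probes 9 reached 60000 or more in a channel, those of Camp, Mpo and Chil3 among them, so that their ratios and the summed signals are limited by the scanner's range. With centred arrays 3 were higher (2.89% over all genes) and with loess 8 (7.34%). The list had summed raw signals of 188833 in wt and 593716 in KO on replicate 1 and of 506194 and 710323 on replicate 2. Of 10 B cell markers 0 were called by limma, against 3.41% lower and 2.81% higher over all genes. At an unadjusted p under 0.05 were 4 by limma and 0 by an ordinary t statistic, against 839 and 302 of 5192 genes. With loess 1 was lower (5.34% over all genes). The median of the B cell markers was -0.70. Their summed raw signals were 100978 in wt and 96129 in KO on replicate 1 and 294211 and 174703 on replicate 2. The part of these cell types in the p200 values was not tested. In such a mixed sample, fewer cells of a type and less RNA per cell cannot be told apart.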

How the data were processed

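Per the labels' protocols, total RNA was extracted with Trizol and labelled with Cy5 (wt) and Cy3 (IRF8 KO). The deposited log2 ratios of Cy5 over Cy3 were normalized with the 50th percentile option of the mAdb database, per the file headers, and equal the raw log2 ratio plus 1 constant per array. The deposited intensities are mean signals minus median background, with a stated minimum of 100 and a signal-to-background minimum of 1, per the file headers. Scanner software is not given in the sources used here. The value table holds the same ratios with the array columns exchanged against the array names, which were followed here.

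The sign was changed so that ratios read IRF8 KO over wt, the deposited scaling was kept, and a gene's probes were averaged. The 5192 genes on both arrays (of 6119 and 8702 probes listed on replicates 1 and 2) entered a two-sided test of a mean ratio of 0 by limma's lmFit and eBayes (version 3.58.1, R 4.3.3), with Benjamini-Hochberg adjustment and a threshold of 0.05. Limma gave every gene a standard error of 0.399, so a call amounted to a mean of at least 1.18 in size. This made 177 genes lower and 146 higher (45.2% of calls higher, 78.1% with centred arrays and 57.9% with loess). The number of arrays limits the precision, and the p-values describe only these samples. A p-value of this fit sets the mean against a spread pooled over genes, not against the gene's own spread between the 2 arrays. An exact sign-flip test of 2 arrays cannot go below p = 0.5.

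Members and gene lists were chosen with earlier results of these data known. Named are all family probes, genes within 2 Mb, the 5 genes nearest in ratio to each member, and per list the called genes (up to 6) and leading uncalled ones (up to 4), beside others named after their values were seen, such as Itgam, Itgb2, Oas2, Cgas, Fos and Jun. Of 8459 probes with an Entrez ID, 8370 were found in RefSeq's table, used for names. T and NK cell markers had 1 of 2 genes lower (Cd2) and erythroid markers 0 of 3 called by limma (2 at an unadjusted p under 0.05, 1 lower with loess). Over all genes 3.41% were lower and 2.81% higher by limma, and 5.34% were lower with loess. A few results are not reported here. Alternatives were centring, loess, filters on dim, bright and multiply matching probes, the brightest probe, an intensity trend, an ordinary t statistic and single arrays.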

Additional observations from a re-analysis of the deposited data

How the results depend on the processing

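The mean ratios of Ifi204 and Ifi205 stayed below 0 under every alternative that gave a value, and for Ifi205 the brightest probe moved the mean from -2.15 to -1.61. Single arrays gave -1.53 and -3.03 for Ifi204 and -1.94 and -2.35 for Ifi205. Without probes that match several genes Ifi205 had no value. Over all genes, limma called 42 genes lower with centred arrays and 277 with loess, against 177, and 381 higher with loess, against 146. An ordinary t statistic called 0 lower and 0 higher, with 302 genes at an unadjusted p under 0.05, and limma had 839. By the rule of 2-fold on both arrays, 143 genes were lower and 112 higher. With centred arrays these were 69 and 186, and with loess 58 and 195. On single arrays, 281 and 643 genes were 2-fold lower and 396 and 135 were 2-fold higher. The cause of these shifts was not tested. A filter at a signal of 500 removed no gene, and 1 at 1000, chosen after seeing the data, kept these counts within 1.5 times. Of calls in the named lists, the lower ones went from 4 to 1 with centred arrays for interferon-stimulated genes, from 7 to 2 for monocyte and macrophage markers and from 4 to 0 for dendritic cell markers. Without probes at 60000 or more, Hmgb2 had no value and 3 neutrophil markers were higher, against 6. The test of the ratios already pairs wt with KO on each array. No paired analysis was possible because, beyond that pairing, a block for the replicate leaves no spread to estimate.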

Other observations

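Several markers were listed on 1 array only and entered no comparison. On replicate 1 only, macrophage genes were far lower in KO: C1qc, a complement subunit, read 9053 in wt and 585 in KO (log2 ratio -3.98), Cd68 read 5822 and 741, Adgre1, which encodes the F4/80 antigen, read 9103 and 1294 (-2.84), and Mertk, a receptor for dead cells, read 3201 and 625 (-2.38). On replicate 2 only, granule genes of neutrophils were higher in KO, with 1268 in wt and 8640 in KO for Ctsg (2.38) and 1920 and 11020 for Mmp8 (2.13). Dendritic cell markers listed on 1 array differed in sign. Cd209a read 1650 in wt and 5015 in KO on replicate 2 (1.21). Irf4 stood at 0.66 on replicate 1, and Ccr7 at -0.30 and Tcf4 at -0.32 on replicate 2.

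Among interferon-stimulated genes, Ifit3 had a probe on each array that the other lacked, with 2411 in wt and 730 in KO on replicate 1 (-1.75) and 883 and 1225 on replicate 2 (0.08). Cmpk2, a mitochondrial kinase induced by interferon, was listed on replicate 2 only, with 889 in wt and 2378 in KO (1.03), against the direction of Ifi203 on that array.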
